A study of Mus musculus with 22 samples.

Results

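Gluconeogenesis is the pathway by which the liver makes glucose from lactate, amino acids and glycerol when none arrives from the gut. Pyruvate is carboxylated to oxaloacetate, oxaloacetate is turned into phosphoenolpyruvate, and a chain of steps shared with glycolysis leads to fructose bisphosphate, which fructose bisphosphatase and then glucose-6-phosphatase dephosphorylate to release free glucose. Glucagon switches the pathway on through cAMP, the transcription factor CREB and its coactivators, and insulin switches it off, largely by keeping FoxO1 out of the nucleus. Tcf7l2, also called TCF4, is a transcription factor that acts at the end of the Wnt pathway with beta-catenin, and whether it governs hepatic glucose output was one of the questions of the study.

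The genes described here are 10 enzymes, carriers and regulators of this pathway, chosen by name: G6pc, Slc37a4, Fbp1, Pcx, Pck2, Gpt, Got1, Ldha, Ppargc1a and Crtc2. Every probe on the array that carries 1 of these names was used, which gave 12 probes of the 41174 on the array that are not controls, and 10 of its 28095 gene names. Ppargc1a and Ldha were each read by 2 probes and the other genes by 1. All 12 probes passed the filter on dim signals and entered both the newborn and the adult test.

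Liver RNA of 22 C57BL/6 mice was measured, 1 array per mouse. The fasted adults had gone without food for 24 h and comprised 4 knockouts (LTCF4KO, Tcf7l2loxp/loxp;SA-CreERT2) and 4 controls (Tcf7l2loxp/loxp without Cre), and the adults fed ad libitum comprised 3 knockouts and 3 controls of the same genotypes. All adults, controls included, received tamoxifen at 3 weeks of age and were sampled 1 to 2 months later. SA-CreERT2 is known as a tamoxifen-inducible Cre driven from the serum albumin locus, which is active in hepatocytes, so cells of other types in these livers would keep the gene. The newborns comprised 4 Tcf7l2-/- pups, in which every cell lacks the gene, and 4 Tcf7l2+/+ pups. All 8 pups, wild types included, had been given 50 ul of a 10% glucose solution under the skin and were sampled 5 h after birth.

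On each array the liver RNA carried Cy3 and a commercial mouse reference RNA carried Cy5, and the value used is log2 of liver over reference. The liver signal was well above background for between 50.2% and 62.0% of probes on the fasted arrays, between 22.8% and 31.2% on the fed arrays and between 50.2% and 64.4% on the newborn arrays. For the gluconeogenesis probes it was well above background on every fasted and every newborn array, but on 0 of 6 fed arrays for both Ppargc1a probes and on 4 of 6 for Pck2. Newborn knockouts and newborn wild types lay on a slide each, so genotype and slide cannot be told apart in the newborns. Fasted and fed adults also lay on different slides, 2 for each feeding state, so feeding state and slide cannot be told apart either, whereas each adult slide held both genotypes.

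Along the first principal component, with 45.9% of the newborn variance, newborn knockouts 1 and 4 and newborn wild type 1 stood apart from the other 5 pups. Fasted knockouts 1 and 2 stood apart from the other adults along the second component of the adult arrays, with 10.7% of the variance. Changes without these arrays are therefore also given for G6pc, Slc37a4, Fbp1, Gpt and Ldha in newborns and for Got1 and Ppargc1a in fasted adults. For the other genes they are not given.

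For the targeted gene, Tcf7l2 probe A_52_P566741 read -1.85, -1.57, -1.58 and -1.63 (log2 liver over reference) in the newborn knockouts, against -1.28, -0.83, -0.70 and -0.32 in the newborn wild types, so the groups did not overlap. In adults it read 0.63, -0.15, 0.22 and 0.57 in fasted knockouts, against -0.13, 0.09, 0.03 and -0.10 in fasted controls. It read 0.01, -0.35 and -0.13 in fed knockouts, against -0.37, -0.06 and -0.64 in fed controls. The probe was therefore not lower in the adult knockouts. The groups of each pair overlapped on the other Tcf7l2 probes, A_52_P146043 and A_52_P316355. Neither of them was well above background on any fed array, nor was A_52_P316355 on any newborn array. The overlap on those arrays therefore cannot check the deletion. The labels do not say which exon is removed, and a probe that lies outside the deletion cannot check it, so the genotype of the adults rests on the labels.

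All 9 measured hepatocyte markers, such as Alb and Ttr, gave a liver signal well above background in every mouse. All 10 erythroid markers did so in the newborns, against at most 5 of 10 in any adult, and the neutrophil markers followed the same split. In whole liver, fewer cells of a type and less RNA per cell cannot be told apart.

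The sequences below show where these genes are read and controlled. Promoters are given for the genes on which the results turn: G6pc and Fbp1, lower in fasted livers as a ratio, Got1, whose knockout and control values were separate within each adult feeding state, and Ppargc1a, the regulator with the next largest difference between fasted knockouts and controls. They are the 250 bases before the transcription start in RefSeq on GRCm38.p6, written 5′ to 3′ on the gene's own strand. Capitals mark exact matches, on either strand, to CTTTGAT or CTTTGAA (Tcf/Lef), TGTTTAC or TGTTTTG (FoxO) and TGACG (the half-site of the cAMP response element). None of these motifs overlaps another in the 4 windows.
G6pc, chr11:101367466-101367715, + strand: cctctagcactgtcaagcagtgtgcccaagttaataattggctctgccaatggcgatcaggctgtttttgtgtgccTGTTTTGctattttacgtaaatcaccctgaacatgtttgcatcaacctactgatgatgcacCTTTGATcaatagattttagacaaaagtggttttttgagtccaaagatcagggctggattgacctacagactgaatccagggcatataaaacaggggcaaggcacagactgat
Fbp1, chr13:62888283-62888532, - strand: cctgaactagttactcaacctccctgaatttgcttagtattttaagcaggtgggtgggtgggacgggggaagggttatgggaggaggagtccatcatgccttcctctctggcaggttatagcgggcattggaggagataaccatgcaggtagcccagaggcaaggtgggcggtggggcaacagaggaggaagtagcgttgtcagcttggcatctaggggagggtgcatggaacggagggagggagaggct
Got1, chr19:43524606-43524855, - strand: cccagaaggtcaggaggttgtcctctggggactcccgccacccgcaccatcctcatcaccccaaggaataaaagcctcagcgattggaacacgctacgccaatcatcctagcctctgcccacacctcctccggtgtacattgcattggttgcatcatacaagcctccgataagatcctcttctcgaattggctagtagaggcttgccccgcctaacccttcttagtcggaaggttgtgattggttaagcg
Ppargc1a, chr5:51567726-51567975, - strand: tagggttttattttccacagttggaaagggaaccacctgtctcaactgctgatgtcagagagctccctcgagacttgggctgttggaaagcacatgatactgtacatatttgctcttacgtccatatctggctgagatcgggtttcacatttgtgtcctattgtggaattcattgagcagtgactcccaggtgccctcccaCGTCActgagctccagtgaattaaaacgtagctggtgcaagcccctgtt

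The G6pc window held CTTTGAT on its own strand, starting 113 bases before the transcription start, and TGTTTTG, starting 174 bases before it. CTTTGAT was present in 3.21% of the 32817 windows of this length in the RefSeq table, and TGTTTTG in 5.56%. The Ppargc1a window held the complement of TGACG, starting 49 bases before the start, a motif present in 17.7% of windows. The Fbp1 and Got1 windows held none of the 5 motifs, of which CTTTGAA was present in 4.46% of windows and TGTTTAC in 3.16%. RefSeq promoters were matched for 8 of the 10 genes, and Gpt and Crtc2 were not matched.

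The probes themselves are 60 bases long. Those printed below read Gpt and Pck2, the genes with the widest gap between adults and newborns, and Ldha, whose probes disagree. Positions are on mm9, as in the array files.
Gpt, A_51_P426739, chr15:76529767-76529897: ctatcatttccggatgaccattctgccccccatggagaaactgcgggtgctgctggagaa
Pck2, A_52_P21659, chr14:56167465-56167524: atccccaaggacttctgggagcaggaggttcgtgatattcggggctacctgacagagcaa
Ldha, A_51_P364146, chr7:54109426-54110355: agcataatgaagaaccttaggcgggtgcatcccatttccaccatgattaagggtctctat

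The Pck2 probe covers 60 bases of genome without a gap, while the mapped span is 131 bases for the Gpt probe and 930 for the Ldha probe, more than the 60 bases of each. The other Ldha probe, A_51_P364140, lies at chr7:54110889-54110948.

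**Figure D1:**
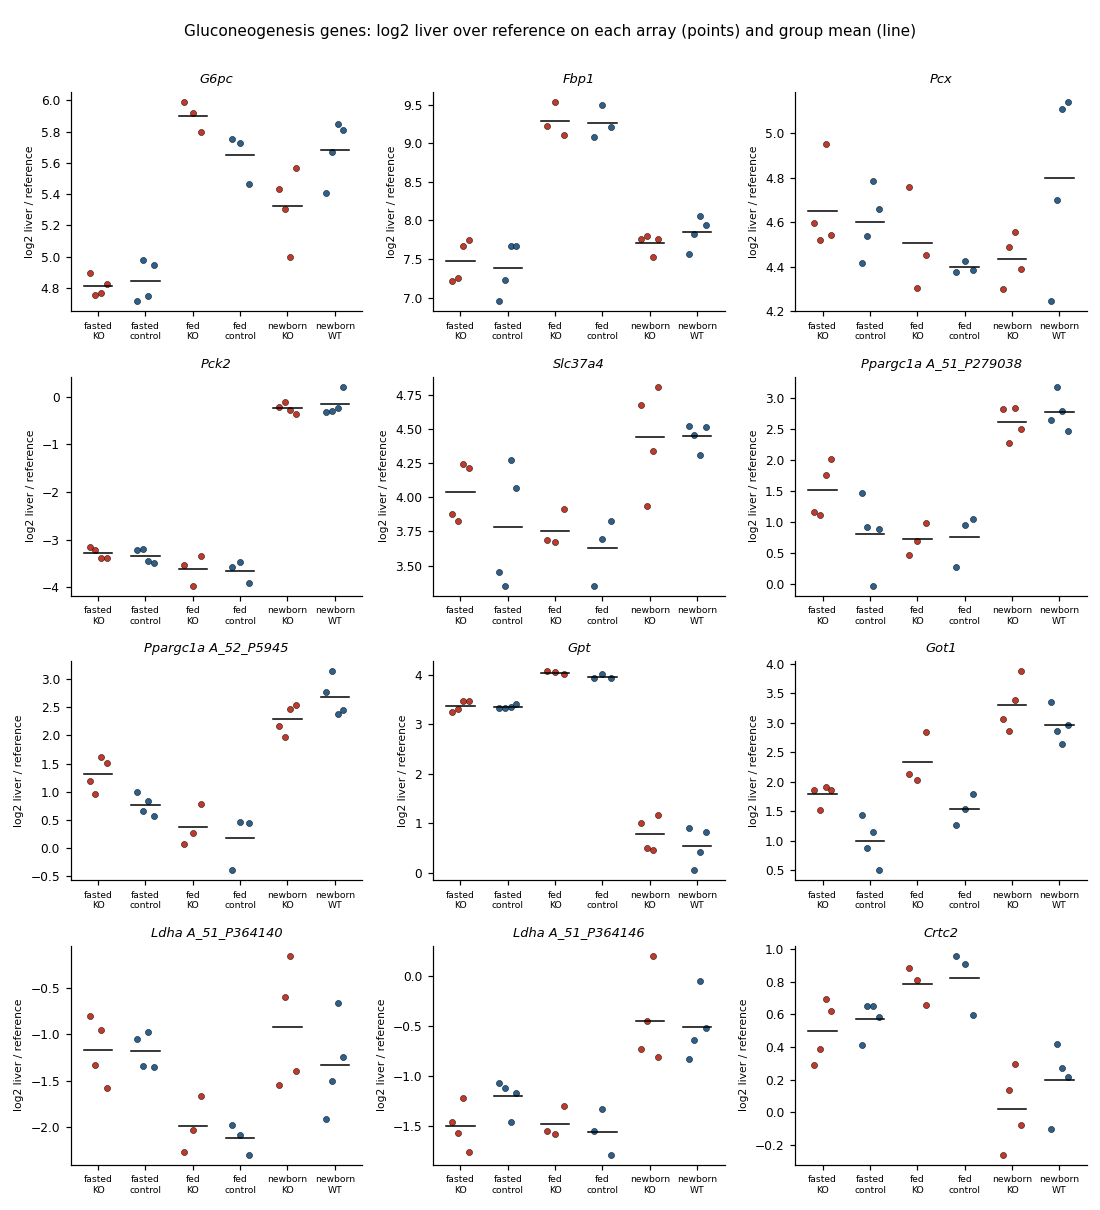
Log2 liver over reference of the 12 probes on each array. Each panel is 1 probe with its own vertical scale; red points are knockouts, blue points are controls or wild types (n = 4 per fasted and newborn group, n = 3 per fed group), and black lines are group means. Knockouts and controls overlap in most panels, Got1 is higher in knockouts in both adult states, and Pck2 and Gpt separate all adults from all newborns.

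In newborns, where the question was whether loss of Tcf7l2 changed the genes of glucose production, no gluconeogenesis probe passed the test between knockouts and wild types. None of the 12 reached an adjusted p of 0.05 (limma, Benjamini-Hochberg over 24410 probes), a threshold that 1.14% of all tested probes passed (0.86% higher and 0.283% lower in knockouts). At an unadjusted p of 0.05, 1 of the 12 passed, against 12.7% of all probes, and on 0 of the 12 were the groups' ranges apart, against 8.68% of all probes. The 95% interval of the change lay within 1 log2 unit of 0 for 11 of the 12 probes, the exception being Ldha probe A_51_P364140 with an upper end of 1.17.

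G6pc, the catalytic subunit of glucose-6-phosphatase and the last step to free glucose, read 5.43, 5.31, 5.00 and 5.56 in newborn knockouts, against 5.41, 5.67, 5.85 and 5.81 in newborn wild types. The groups overlapped through wild type 1, and the change was -0.36 ± 0.15 (SE) on the log2 scale with a limma p of 0.0399 and an adjusted p of 0.357. Without the 3 newborn arrays that stood apart, the G6pc change was -0.62 with an adjusted p of 0.0874, on 2 knockouts and 3 wild types. The slide of each genotype cannot be told apart from the genotype here.

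Slc37a4, which carries glucose-6-phosphate into the endoplasmic reticulum for that last step, averaged 4.44 ± 0.39 in newborn knockouts and 4.45 ± 0.10 in newborn wild types (SD, n = 4 each), a change of -0.01 ± 0.18. Fbp1, the fructose bisphosphatase of liver, averaged 7.71 ± 0.12 in newborn knockouts and 7.85 ± 0.21 in wild types (SD, n = 4 each), a change of -0.14 ± 0.13. Over all pups both differences were within the spread between them. Without the 3 newborn arrays that stood apart, the Slc37a4 and Fbp1 changes were -0.29 and -0.27.

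Of the enzymes that feed carbon into the pathway, Pcx, the pyruvate carboxylase that makes oxaloacetate, read 4.30, 4.49, 4.55 and 4.39 in newborn knockouts, against 4.24, 4.70, 5.11 and 5.14 in wild types. Wild type 1 was the lowest pup and the other 3 wild types lay above all knockouts, with a change of -0.36 ± 0.19 and an adjusted p of 0.490. Pck2, the mitochondrial phosphoenolpyruvate carboxykinase, changed by -0.08 ± 0.14. The changes of Gpt, the alanine aminotransferase that turns alanine into pyruvate, and Got1, the cytosolic aspartate aminotransferase of the malate-aspartate shuttle, were 0.24 ± 0.23 and 0.34 ± 0.23. None of these passed the test. Without the 3 newborn arrays that stood apart, the Gpt change was 0.05.

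Ldha, the lactate dehydrogenase subunit that interconverts lactate and pyruvate, varied most among the pups. Probe A_51_P364140 spanned -1.55 to -0.16 in newborn knockouts and -1.91 to -0.66 in newborn wild types, a change of 0.40 ± 0.34. The second Ldha probe changed by 0.06 ± 0.24. Without the newborn arrays that stood apart, the changes of these probes were 0.76 and 0.28, neither passing. Among the regulators, Ppargc1a, the coactivator PGC-1alpha that drives gluconeogenic genes in fasting, changed by -0.16 ± 0.18 on probe A_51_P279038 and by -0.39 ± 0.19 on probe A_52_P5945, with adjusted p of 0.810 and 0.443. Crtc2, the CREB coactivator that glucagon releases into the nucleus, changed by -0.18 ± 0.16.

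Markers of another cell type moved in the same comparison. All 9 Kupffer cell and macrophage probes (10 entries) were below wild type in the newborn knockouts, with a median change of -0.63. Of the 10 entries 1 passed the test, where 1.3% of all genes did, the scavenger receptor Marco with a change of -1.34 and a limma adjusted p of 0.00925. Of the 10 erythroid markers 1 lay above wild type, with a median change of -0.22 and none passing. The 6 endothelial and 6 stellate cell markers were all below wild type, with a median change of -0.47 each and none passing. The mean level of 9 Kupffer cell probes lay between 3.08 and 3.64 in newborn knockouts and between 3.85 and 4.07 in newborn wild types. Hepatocyte markers changed by a median of -0.03, with 0 of 9 passing. The part of these cells in the gluconeogenesis values was not tested.

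**Figure D2:**
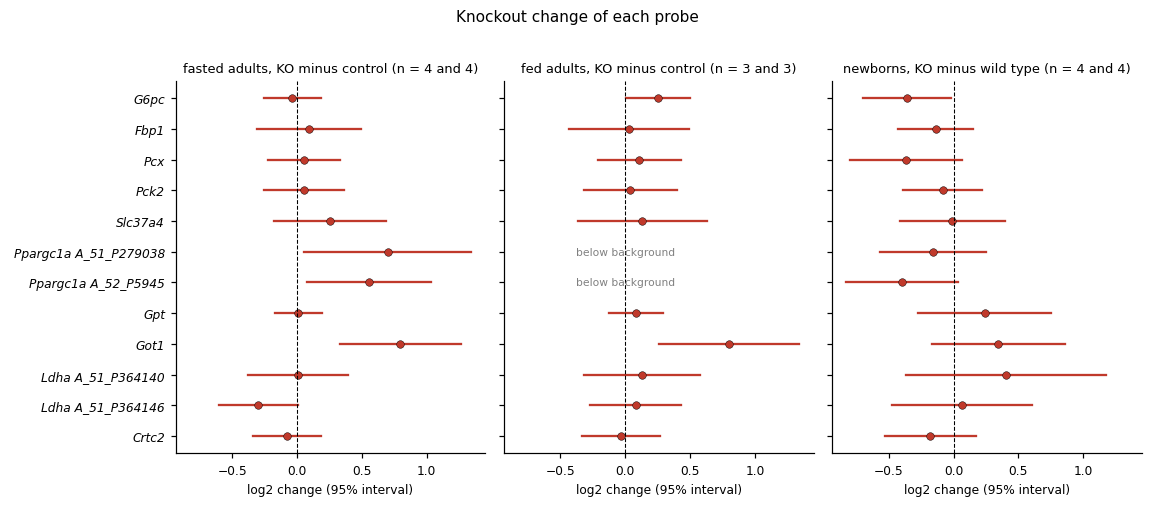
Change of each probe on the log2 scale with its 95% interval from limma, in fasted adults, fed adults and newborns, as knockout minus control or wild type. No interval comes from a probe that passed the adjusted threshold; both Ppargc1a probes were not well above background in either fed group and show no value there, and Got1 has the largest change in both adult panels.

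In adults, where the knockouts had carried Tcf7l2 until tamoxifen, 0 of the 12 gluconeogenesis probes passed the test between fasted knockouts and fasted controls, against 0.434% of the 25133 probes tested (0.0995% higher and 0.334% lower). Likewise 0 of the 12 passed between fed knockouts and fed controls, against 0.215% of all probes (0.0279% higher and 0.187% lower). At an unadjusted p of 0.05, 3 of the 12 passed in the fasted pair, where 10.4% of all probes did, and 2 of the 12 in the fed pair, where 6.84% did. The 95% interval lay within 1 log2 unit of 0 for 9 of the 12 probes in the fasted pair and for 11 of the 12 in the fed pair. The 11 include both Ppargc1a probes, which were not well above background on any fed array, so their intervals do not bound a change.

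Got1 had the smallest p of the 12 in both pairs. It read 1.87, 1.53, 1.91 and 1.87 in fasted knockouts, against 1.45, 0.89, 1.15 and 0.50 in fasted controls. It read 2.14, 2.03 and 2.84 in fed knockouts, against 1.27, 1.54 and 1.80 in fed controls. Every knockout therefore lay above every control of its feeding state, which was true of 1 of the 12 probes in the fasted pair, where the ranges of 6.2% of all probes were apart in either direction.

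The Got1 change was 0.80 ± 0.22 in fasted adults (1.74-fold, limma adjusted p = 0.176) and 0.80 ± 0.25 in fed adults (1.74-fold, limma adjusted p = 0.427), so neither passed the test. With arrays weighted by their quality the fasted Got1 change was 0.95 and passed, with a limma adjusted p of 0.0413. Within slides, the fasted change was 0.53 on slide 3 and 1.06 on slide 4, and the fed change was 0.82 on slide 5 and 1.17 on slide 6. Without fasted knockouts 1 and 2 the fasted Got1 change was 0.89. In the liver channel alone, with no reference, it was 0.86 ± 0.27 in fasted and 0.86 ± 0.31 in fed adults, with adjusted p of 0.239 and 0.527.

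Averaged over both feeding states, a contrast added after these values were seen, the Got1 change was 0.80 ± 0.17 with a 95% interval of 0.44 to 1.15 and a limma adjusted p of 0.0515. It thus stayed just short of the threshold, which 0 of the 12 probes and 0.609% of all probes passed in this contrast (0.159% higher and 0.45% lower). At an unadjusted p of 0.05, 2 of the 12 passed, Got1 and Ppargc1a probe A_52_P5945, whose fed signal was not well above background, against 8.79% of all probes. In the newborns Got1 was higher in knockouts by 0.34 ± 0.23, with overlapping groups.

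G6pc read 4.89, 4.76, 4.77 and 4.83 in fasted knockouts, against 4.71, 4.98, 4.75 and 4.95 in fasted controls. The difference was within the spread between mice, with a change of -0.04 ± 0.10 and an adjusted p of 0.955. In fed knockouts it read 5.99, 5.92 and 5.80, against 5.76, 5.73 and 5.47 in fed controls. These groups were separate by a narrow margin, as were those of 2 of the 12 probes, G6pc and Got1, in a comparison in which 10.8% of all probes were separate. The fed G6pc change was 0.25 ± 0.12 with an adjusted p of 0.727, and it was 0.20 both on slide 5 and on slide 6.

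Hepatocyte and Kupffer cell markers also lay higher in fed knockouts, without passing the test. All 9 hepatocyte markers were above control in the fed knockouts, with a median change of 0.51 and 0 of 9 passing the test, and their mean level lay between 7.14 and 7.34 in fed knockouts, against 6.50 to 6.89 in fed controls. All 9 Kupffer cell probes (10 entries) were above control too, with a median change of 0.52 and 0 of 10 entries passing. The 9 probes averaged 3.23 to 3.86 in fed knockouts, against 2.85 to 3.26 in fed controls. The part of these cells in the G6pc and Got1 values was not tested. In the fasted pair the hepatocyte markers changed by a median of -0.02 and the Kupffer cell markers by 0.16, with 8 of the 10 entries above 0.

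Both Ppargc1a probes had higher means in fasted knockouts, without passing the test. Probe A_51_P279038 read 1.15, 1.10, 1.75 and 2.00 in fasted knockouts, against 1.46, 0.91, -0.03 and 0.89 in fasted controls. Probe A_52_P5945 read 1.19, 0.95, 1.62 and 1.51 in fasted knockouts, against 1.00, 0.65, 0.83 and 0.57 in fasted controls. The groups overlapped on both, through fasted control 1.

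The changes were 0.70 ± 0.30 and 0.55 ± 0.22, with adjusted p of 0.437 and 0.395, so neither probe passed. The slides differed: on probe A_51_P279038 the Ppargc1a change was -0.05 within slide 3 and 1.45 within slide 4, and on probe A_52_P5945 it was 0.24 within slide 3 and 0.86 within slide 4. Fasted knockouts 1 and 2 lie on slide 3, and without them the changes were 1.07 and 0.80, still without passing. In fed livers the signal of both probes was not well above background in either genotype, and no fold was computed.

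The other genes gave small knockout changes in adults. Fbp1 changed by 0.09 ± 0.19 in fasted and by 0.03 ± 0.21 in fed knockouts, Pcx by 0.05 ± 0.13 and 0.11 ± 0.15, and Gpt by 0.01 ± 0.08 and 0.08 ± 0.10. Slc37a4 changed by 0.26 ± 0.20 in fasted and by 0.13 ± 0.23 in fed knockouts. Pck2 and Crtc2 stayed within 0.08 log2 units of their controls in both states. Ldha probe A_51_P364146 changed by -0.30 ± 0.14 in fasted knockouts, with an adjusted p of 0.488, whereas probe A_51_P364140 changed by 0.01 ± 0.18.

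Whether fasting acted differently with and without Tcf7l2 was tested as an interaction. None of the 12 gluconeogenesis probes passed, against 0.0119% of all probes, and none reached an unadjusted p of 0.05, against 6.55% of all probes. The largest interaction was that of Ppargc1a probe A_51_P279038, 0.74 ± 0.46, with a 95% interval of -0.24 to 1.73, and it includes fed arrays on which the probe was not well above background. The G6pc interaction was -0.29 ± 0.15 with an adjusted p of 0.768. Values for fasting are therefore given side by side for each genotype.

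As a loess-normalised ratio to the reference, fasted livers had less of 3 hepatocyte enzymes, Fbp1, G6pc and Gpt, in both genotypes, and more signal on 1 Ldha probe. Of the 3, Fbp1 also passed when arrays were centred on their median in place of loess, whereas Gpt then turned to 0.20 in knockouts and 0.17 in controls without passing, and G6pc passed with -0.39 in knockouts but not with -0.23 in controls (limma adjusted p = 0.133). In knockouts 5 of the 12 probes passed between fasted and fed, 2 higher and 3 lower, against 35.6% of all probes (19.6% higher and 15.9% lower). In controls 4 of the 12 passed, 1 higher and 3 lower, against 37.9% of all probes (22.2% higher and 15.7% lower). With median centring 9 passed in knockouts, 7 higher and 2 lower, and 6 in controls, 5 higher and 1 lower. The share of all probes that passed with median centring is not given here, so these counts are not read against the array. At an unadjusted p of 0.05, 9 of the 12 passed in knockouts, against 45.8% of all probes, and 7 of the 12 in controls, against 47.4%. The ranges of fasted and fed livers were apart on 7 of the 12 in knockouts, against 42.2% of all probes, and on 5 of the 12 in controls, against 44.1%. In the loess ratios, the shares of the gluconeogenesis probes past the adjusted threshold were close to those of the array as a whole.

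Fbp1 read 7.22, 7.26, 7.67 and 7.74 in fasted knockouts, against 9.23, 9.53 and 9.11 in fed knockouts. It read 6.95, 7.23, 7.67 and 7.66 in fasted controls, against 9.08, 9.49 and 9.22 in fed controls. No fasted mouse came near a fed one. The ratio changed by -1.82 ± 0.20 in knockouts (limma adjusted p = 4.23e-05) and by -1.885 ± 0.20 in controls (limma adjusted p = 3.17e-05). The loess-normalised ratio was thus 3.53-fold higher in fed knockouts and 3.69-fold higher in fed controls. In the liver channel alone, Fbp1 changed by 0.03 in knockouts and -0.09 in controls with quantile scaling. With liver signals at the 75th percentile the changes were -0.45 and -0.50. The folds therefore describe the ratio and not the liver signal.

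The G6pc ratio fell by 1.09 ± 0.11 in fasted knockouts relative to fed knockouts and by 0.80 ± 0.11 in fasted controls relative to fed controls, with limma adjusted p of 2.06e-05 and 1.52e-04 and with separate groups in both, and by less with median centring, as given above. Gpt had narrow groups, with 3.24 to 3.47 in fasted knockouts, against 4.01 to 4.08 in fed knockouts, and 3.33 to 3.42 in fasted controls, against 3.94 to 4.02 in fed controls. Its ratio fell by 0.68 ± 0.09 in knockouts and by 0.61 ± 0.09 in controls, with limma adjusted p of 1.44e-04 and 2.73e-04.

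The ratio of Ldha probe A_51_P364140 rose in fasting by 0.82 ± 0.19 in knockouts and by 0.94 ± 0.19 in controls, with limma adjusted p of 0.00588 and 0.00233. In the liver channel alone it did not pass, with 0.17 ± 0.22 in knockouts and 0.38 ± 0.22 in controls under quantile scaling. At the 75th percentile its changes were 0.12 and 0.28, also without passing. The ratio of the Ldha probe printed above, A_51_P364146, did not pass, with changes of -0.03 ± 0.15 and 0.35 ± 0.15. That probe passed with median centring, at 1.11 in knockouts and 1.29 in controls, and with Feature Extraction's processed signals, at 0.60 and 0.67, so the disagreement of the Ldha probes depends on the normalisation.

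Ppargc1a probe A_52_P5945 is the fifth probe that passed in knockouts, higher in fasted livers, with a limma adjusted p of 0.00828. Its fed signal was not well above background on any array, so no size is given, and in the liver channel alone it did not pass, with adjusted p of 0.139 under quantile scaling and 0.810 under the 75th percentile. The other Ppargc1a probe did not pass in knockouts, and neither probe passed in controls.

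The fasting values were then also taken from the liver channel alone, without the reference. In that channel, too, feeding state and slide cannot be told apart, because fasted and fed arrays were run on different slides. The reference channel, which held the same commercial RNA on every array, differed between fasted and fed arrays of knockouts in 14451 of 25133 probes and between those of controls in 15207. For gluconeogenesis genes it was higher on fasted arrays for Fbp1, by 0.72 ± 0.20 in knockouts and 0.67 ± 0.20 in controls, and for Got1, by 0.86 ± 0.11 and 0.88 ± 0.11. It was lower for Slc37a4, by -1.02 ± 0.30 in knockouts and -1.63 ± 0.30 in controls, and for Pcx, by -0.46 ± 0.16 and -1.04 ± 0.16. It did not pass for G6pc, Gpt, Pck2 or Crtc2 in either genotype, with Gpt at 0.22 ± 0.10 in knockouts and 0.02 ± 0.10 in controls.

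**Figure D3:**
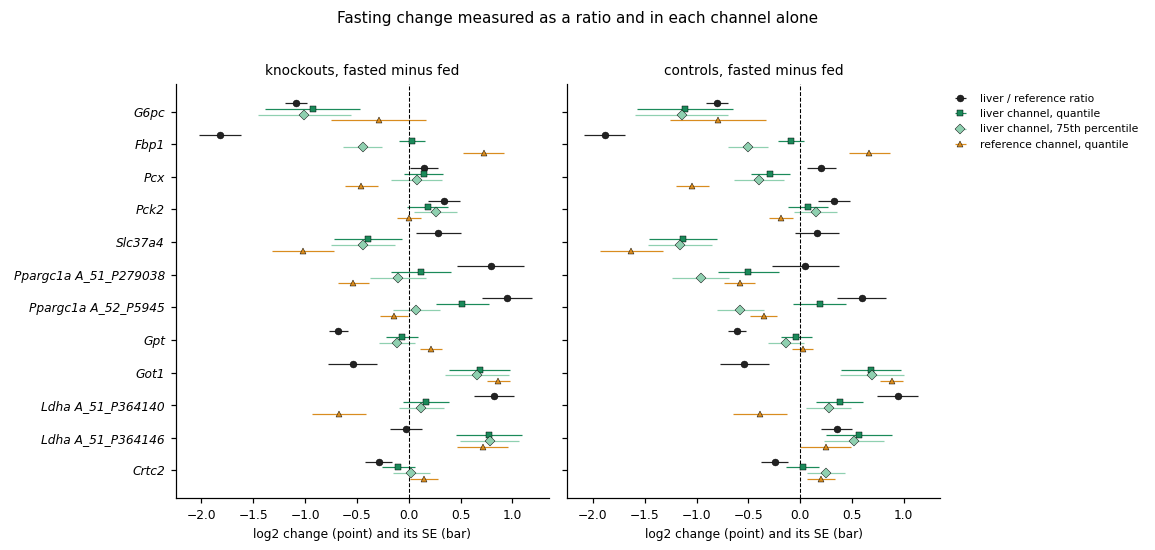
Fasting change of each probe on the log2 scale, fasted minus fed, in knockouts and controls, with bars of 1 SE. Black circles are the ratio, green squares and light green diamonds the liver channel alone under 2 scalings, and orange triangles the reference channel; for Fbp1 the black circle lies near -1.8 while the liver channel lies near 0 under quantile scaling.

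In the liver channel with quantile scaling, 0 of the 12 gluconeogenesis probes passed between fasted and fed knockouts, where 31.8% of all probes passed, and 1 of the 12 between fasted and fed controls, where 40.8% did. Got1 rose by 0.68 ± 0.29 in both knockouts and controls without passing, with limma adjusted p of 0.0888 and 0.0759. The Got1 ratio moved the other way, by -0.54 ± 0.23 in each genotype, also without passing. In the liver channel, Ldha probe A_51_P364146 changed by 0.77 ± 0.32 in knockouts and 0.56 ± 0.32 in controls, with limma adjusted p of 0.079 and 0.176. Fbp1 changed by 0.03 ± 0.12 in knockouts and by -0.09 ± 0.12 in controls, and Gpt by -0.07 ± 0.15 and -0.04 ± 0.15. G6pc stayed lower, by -0.93 ± 0.46 in knockouts and -1.11 ± 0.46 in controls, but with adjusted p of 0.142 and 0.0698.

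The probe that passed in controls was Slc37a4, which fell by 1.13 ± 0.33 with a limma adjusted p of 0.0139. Its liver signal was 13.23, 13.39, 12.39 and 14.21 in fasted controls, against 14.01, 14.51 and 14.78 in fed controls. Fasted control 3 was the lowest, and its reference signal of 10.31 was the lowest of the adult arrays too. The ratio of the same probe had moved the other way, by 0.16 ± 0.22 without passing, and in knockouts the liver channel changed by -0.39 ± 0.33.

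With each array's liver signal set to its 75th percentile, 5 of the 12 probes passed in controls, all lower in fasted livers, and 1 of the 12 in knockouts. The 5 were G6pc with -1.14, Fbp1 with -0.50, Slc37a4 with -1.16 and both Ppargc1a probes, whose fed signals were not well above background and whose changes are therefore not given as sizes, and the 1 was Ldha probe A_51_P364146, which rose by 0.78. The median of all probes shifted by -0.31 in knockouts and -0.34 in controls under this scaling, beside changes of -0.45 and -0.50 for Fbp1. On fed arrays 22.8% to 31.2% of probes had a liver signal well above background, against 50.2% to 62.0% on fasted arrays. The 75th percentile therefore lay near the limit of well above background on fed arrays only. The share of all probes that passed under this scaling is not given here, so the counts of 5 and 1 are not read against it. G6pc was below fed under the ratio and under both liver scalings in both genotypes, with the liver channel passing the test only in controls and only under the 75th percentile.

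**Figure D4:**
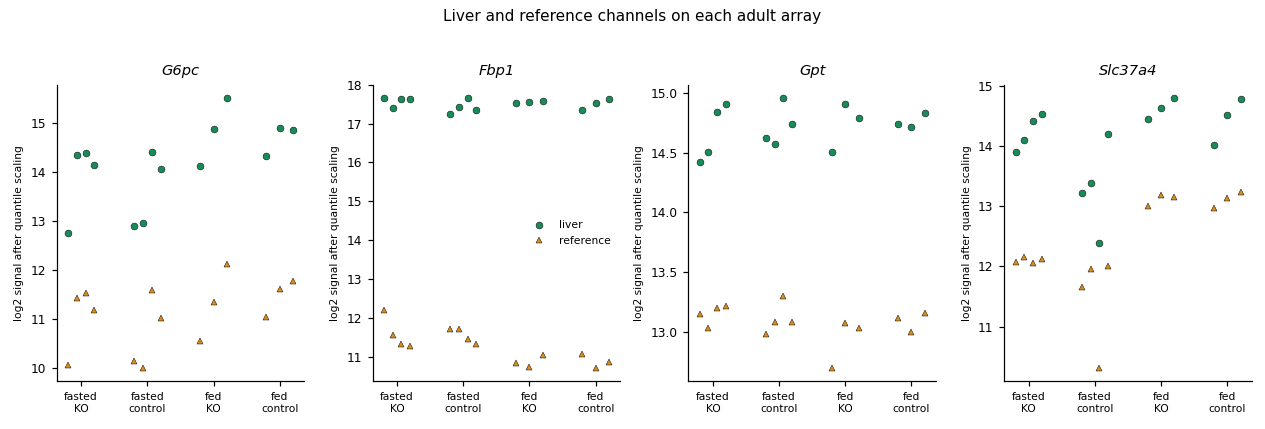
Liver signal (green circles) and reference signal (orange triangles) of G6pc, Fbp1, Gpt and Slc37a4 on each adult array, on the log2 scale after quantile scaling. Fbp1 keeps a level liver signal while its reference signal is higher on fasted arrays, and the G6pc liver and reference signals are low together on fasted knockout 1 and fasted controls 1 and 2.

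The G6pc signals on single arrays show how far the channels moved together. Fasted knockout 1 had a liver signal of 12.75 and a reference signal of 10.06, while fasted knockouts 2, 3 and 4 had liver signals of 14.35, 14.40 and 14.14 and reference signals of 11.43, 11.53 and 11.18. Fasted controls 1 and 2 had liver signals of 12.91 and 12.97, against 14.41 and 14.07 in fasted controls 3 and 4. The ratios of all 8 fasted arrays nonetheless lay between 4.71 and 4.98.

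Markers of several cell types moved with feeding state. As a ratio, of the hepatocyte markers 9 of 9 fell in fasted knockouts, with a median change of -1.49, and 8 of 9 in fasted controls, with a median change of -1.11. Their mean level lay between 5.53 and 5.68 in fasted knockouts, against 7.14 to 7.34 in fed knockouts, and between 5.37 and 5.75 in fasted controls, against 6.50 to 6.89 in fed controls. In the liver channel with quantile scaling their median change was 0.09 in knockouts and 0.39 in controls, and in the reference channel it was 0.89 and 0.73. At the 75th percentile of the liver channel it was -0.31 in knockouts and 0.29 in controls, with 4 and 5 of 9 above 0. The Kupffer cell probes averaged 3.81 to 4.04 in fasted knockouts, against 3.23 to 3.86 in fed knockouts, and 3.45 to 4.14 in fasted controls, against 2.85 to 3.26 in fed controls. Of 6 endothelial markers 4 rose and 1 fell in fasted knockouts, with a median ratio change of 1.24, and 5 rose in fasted controls, with a median of 1.496. Of 6 stellate cell markers 3 rose in each genotype, with medians of 0.34 in knockouts and 0.45 in controls. On fasted arrays all 6 probes of each of these 2 lists were well above background. On fed arrays 2 to 4 of the endothelial and 3 to 4 of the stellate cell probes were. For both lists only ratios are given. The part of these markers in the gluconeogenesis values was not tested.

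On 5 of the 12 probes the adult and newborn ranges were apart, and on 7 they overlapped. All 14 adults lay below all 8 newborns on 4 of the 12 probes and above them on 1, where 13.7% and 12.2% of all probes did so, 25.9% in all. Adults and newborns differ in slide, feeding, glucose injection, tamoxifen and how the gene was deleted, so the values are a description and were not tested.

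Pck2 had the widest gap, with a median of -3.42 (range -3.97 to -3.15) in adults, against -0.25 (range -0.36 to 0.21) in newborns. Gpt ran the other way, with a median of 3.47 (3.24 to 4.08) in adults, against 0.65 (0.05 to 1.18) in newborns. Relative to the reference, the adult livers had less of the mitochondrial carboxykinase transcript and more of the alanine aminotransferase transcript than the pups.

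Ppargc1a was lower in adults on both probes, with medians of 0.97 and 0.72, against 2.71 and 2.45 in newborns, although both probes were not well above background in the fed adults. In fasted adults, where they were, the highest value on either probe was 2.00, against a lowest value of 1.98 in newborns, and on each probe alone the ranges were apart. Ldha probe A_51_P364146 had a median of -1.46 in adults, against -0.58 in newborns, whereas the ranges of probe A_51_P364140 overlapped. Got1 had medians of 1.67 in adults and 3.02 in newborns, and only fed knockout 3, with 2.84, reached into the newborn range.

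Other genes of the pathway were described from lists of genes that act beside these 10, with 1 probe per gene. The lists do not hold every gene of the pathway. Pck1, the cytosolic phosphoenolpyruvate carboxykinase, is neither on them nor among the 10. None of the 19 other enzymes of gluconeogenesis and reversible glycolysis, 13 carriers of its substrates, 24 measured regulators, 13 genes of glycogen metabolism and 10 genes of glycolysis and its control passed the test between fasted knockouts and controls or between fed knockouts and controls, where 0.447% and 0.215% of all genes did. None passed in newborns either, where 18 of the 19 enzymes were tested and 1.3% of all genes passed.

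In newborns the smallest adjusted p on these lists was that of Gcgr, the glucagon receptor, with 6.18 in knockouts and 6.81 in wild types, a change of -0.63 ± 0.13 and a limma adjusted p of 0.0594. It was followed by Mpc1, a subunit of the mitochondrial pyruvate carrier, with a change of -0.60 ± 0.16 and an adjusted p of 0.120. In fasted adults the smallest was that of Pfkfb1, the liver enzyme that makes and breaks down the regulator fructose 2,6-bisphosphate, with 1.82 in knockouts and 3.24 in controls, a change of -1.42 ± 0.44 and an adjusted p of 0.243. In fed adults it was that of Sds, serine dehydratase, with a change of 0.48 ± 0.13 and an adjusted p of 0.285.

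Between feeding states, more of the other enzymes fell than rose with fasting as a ratio. Of the 19 enzymes, 9 fell and 3 rose in fasted knockouts, and 10 fell and 3 rose in fasted controls, where 35.6% and 36.8% of all genes passed in either direction. Eno1, an enolase, fell by 1.68 ± 0.17 in knockouts and fell by 1.83 ± 0.17 in controls. The median change of the list was -0.30 in knockouts and -0.45 in controls, against 0.04 and 0.05 over all genes. These are ratios and share the reference signal described above.

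On the other lists, too, the shares can be read against 35.6% of all genes in knockouts and 36.8% in controls. Of the 13 carriers, 4 fell and 1 rose in fasted knockouts and 3 fell and 1 rose in fasted controls, with Slc25a10, the mitochondrial dicarboxylate carrier, lower by -1.01 and -0.99 and Slc7a2, a transporter of basic amino acids, higher by 1.02 and 1.52. Of the 24 regulators, 4 fell and 3 rose in knockouts and 3 fell and 2 rose in controls. The transcription factor Cebpb rose by 1.28 in knockouts and 0.78 in controls, while Cebpa fell by 0.74 and 0.42. Of the 13 glycogen genes, 4 fell and 2 rose in knockouts and 7 fell and 2 rose in controls, led by the liver glycogen synthase Gys2 with -1.30 and -1.35. Of the 10 genes of glycolysis and its control, 4 fell and 3 rose in knockouts and 4 fell and 0 rose in controls, among them the fructose kinase Khk with -0.82 and -0.94. That list holds regulators such as Gckr, Pdk2 and Pdk4 beside enzymes, so its counts give no direction of the pathway. On no list did a gene pass the interaction of genotype and fasting.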

How the data were processed

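Liver RNA (Cy3) and reference RNA (Cy5) were hybridised to 22 Agilent arrays, each read in both colours, with no dye swap. The deposited files hold scanner intensity values per spot, extracted by the authors with Agilent Feature Extraction, version 10.5.1.1 per the file headers and 8.5.1.1 per the submitters' processing notes. A value table deposited by the authors in log10 units was only compared with the arrays' own log10 ratios. From the intensities, median signals were background-corrected (normexp, offset 50, local backgrounds marked as outliers replaced by the array's median) and loess-normalised with limma 3.58.1 in R 4.3.3, and spots of a probe were averaged. Testing required a liver signal well above background on 4 or more newborn arrays, or on 3 or more adult arrays. Newborns (6 residual degrees of freedom) and adults (10) were fitted separately with lmFit and eBayes, and p-values were adjusted by Benjamini-Hochberg over all tested probes, with a threshold of 0.05. The number of arrays limits the precision. Named are every probe of the 10 genes and, from each pathway list, up to 4 genes with the smallest adjusted p in each comparison. Members and lists were chosen with earlier results of these data known. The labels call the samples biological replicates. The replicate numbers did not pair the samples, with correlations of deviations between -0.25 and 0.50 in newborns. On simulated data, the newborn test recovered 72% of changes of 1 log2 unit and 96% of changes of 2, and the fasted knockout test 70% and 99%.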

Additional observations from a re-analysis of the deposited data

Results flagged for a closer look

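Among 48 sets of 4 arrays, 1 set per probe and group, 2 had an array far from the other 3, and chance gives about 1 in 20. Pck2 read 0.21 in newborn wild type 4, above the other 3 newborn wild types, and Got1 read 1.53 in fasted knockout 2, below the other 3 fasted knockouts. G6pc changed by -0.36 in newborn knockouts and by 0.25 in fed adult knockouts, and Ppargc1a probe A_52_P5945 by -0.39 in newborn knockouts and by 0.55 in fasted adult knockouts. Both pairs of changes run in opposite directions, none of the 4 changes passed its own test, and the differences between them were not tested.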

How the results depend on the processing

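No gluconeogenesis probe passed in newborn, fed knockout or interaction comparisons under any alternative, and in fasted knockouts 1 did, Got1 with array weights. Reversals of fasting changes are listed only where the main or the alternative fit passed. Reversed fasting changes (fasted minus fed, cause not tested) were, in knockouts, Gpt 0.20 and Ldha probe A_51_P364146 1.11 with median centring, the same Ldha probe 0.60 with Feature Extraction's processed signals and 0.78 with liver signals at the 75th percentile, and Fbp1 0.031 with quantile-scaled liver signals, where its change in the ratio was negative. In controls they were Gpt 0.17 with median centring, Slc37a4 -1.13 with quantile-scaled and -1.16 with 75th-percentile liver signals, and Ppargc1a, not well above background when fed, -0.96 and -0.58 with 75th-percentile liver signals. Counts of gluconeogenesis probes passing in fasting moved in knockouts to 9 with median centring, 8 with processed signals, 0 with quantile and 1 with 75th-percentile liver signals, and in controls to 7 with processed signals and 1 with quantile liver signals. With quantile liver signals 31.8% of all probes passed in knockouts and 40.8% in controls. Shares of all probes under the other settings are not given, so the other counts are not read as particular to these genes. With processed signals the count over all probes rose in knockouts too, from 8937 to 13574. Counts over all probes moved as follows. In newborns (279) they were 0 with marked backgrounds kept, 114 with median centring, 496 with processed signals, 1134 with quantile-scaled liver signals (212 at the 75th percentile), 1010 with array weights and 59 for probes above background on every array. In fasted knockouts (109) they were 180 with marked backgrounds kept, 528 within slide 3, 34 within slide 4, 48 for probes above background on every array and 50 without knockouts 1 and 2. In fed knockouts (54) they were 11 with marked backgrounds kept, 34 with 75th-percentile liver signals, 25 with only these groups fitted, 149 within slide 6 and 32 for probes above background everywhere. For fasting in knockouts (8937) they were 5135, 13574 and 4073 with marked backgrounds kept, processed signals and probes above background everywhere, and in controls (9527) 5507 with marked backgrounds kept, 6329 with 1 probe per gene and 3449 above background everywhere. The interaction (3) gave 13 with processed signals, 1 with 75th-percentile signals and 0 with marked backgrounds kept, offset 0, quantile liver signals, 1 probe per gene or probes above background everywhere.

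Leaving out each array in turn gave 76 to 519 probes in newborns (519 without wild type 1, 76 without wild type 3), 74 to 165 in fasted knockouts (165 without knockout 4), 39 to 134 in fed knockouts (134 without knockout 3), 7133 to 8166 for fasting in knockouts, 7372 to 8909 in controls and 3 to 18 for the interaction (18 without fed knockout 3). Gluconeogenesis probes then numbered 0 to 0 in newborns, both knockout comparisons and the interaction, 5 to 6 for fasting in knockouts and 4 to 5 in controls. The replicate numbers did not pair the samples. With them as a block 372 probes passed in newborns, 79 in fasted knockouts, 40 in fed knockouts, 8054 and 8463 for fasting in knockouts and controls and 3 for the interaction, of which gluconeogenesis probes were 0, 0, 0, 5, 4 and 0. Between-array scaling of both channels (Aquantile) leaves ratios as they are and tests nothing here. Leaving out the arrays that stood apart and requiring signal on every array were chosen after seeing the data. Liver signals that were not well above background on all or some fed arrays limit Ppargc1a and Pck2 there. The median liver spot signal was not lower on fed arrays, at 114 to 158, against 77.5 to 104 on fasted arrays.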
